A study of Oryza sativa with 6 samples.

Results

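Alpha-amylases and gibberellin oxidases, gene families known for their part in cereal germination, were followed in aged rice seeds. Members were the probe sets that the platform annotation assigns to exactly 1 gene with an alpha-amylase name (AMY or RAMY and a number) or a gibberellin oxidase name (GA20OX, GA2OX or GA3OX) as its symbol or synonym. The rule used names alone and no measured value. It gave 8 probe sets for 7 genes, of 22436 probe sets for 17905 genes with a single-gene assignment. There were 5 alpha-amylase genes, AMY1.1 (LOC4330832, also AMY1A), AMY1.2 (LOC4347262, also RAmy3A), AMY1.3 (LOC4345814, also RAmy3D), AMY1.4 (LOC4345812, also RAmy3E) and AMY1.5 (LOC4342055, also amy2A). The other 2 genes encode gibberellin 20-oxidases, GA20OX2 (LOC4325003, also sd1) and GA20OX3. AMY1.6 (LOC9271949, also RAmy3B) matched by name but had no probe set assigned to it. No gibberellin 2-oxidase or 3-oxidase gene matched by name (0 of 8 genes), so both enzyme steps were not analysed here. In the gene name table AMY1.3 and AMY1.4 are direct neighbours, as are AMY1.2 and AMY1.6.

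Seeds of Oryza sativa cultivar Nipponbare were aged by controlled deterioration, in which warm, humid air stands in for natural ageing. Both groups were held for 3 days at 25 °C and 85% relative humidity before the warm step and for 3 days at 25 °C and 32% after it. The groups differed in the temperature of the warm step at 85% relative humidity, 40 °C (3 arrays) or 45 °C (3 arrays), which lasted 14 days in one label field and 15 days in another. RNA came from the embryonic axis or embryo, depending on the label field, and was read on the Affymetrix Rice Genome Array after amplification of 50 ng. Values are log2 expression from GCRMA, which removes background, scales the arrays to each other and gives 1 value for each probe set, a group of probes against the same transcript. The labels call the milder treatment a loss of vigour and the harsher one a loss of germination capacity, and a 25 °C control named in them was not analysed here. The labels do not tell whether the 3 arrays at a temperature stem from different lots of seed. The p-values below therefore rest on a spread between samples that could be technical.

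In a germinating cereal grain the embryo releases gibberellin, and the aleurone layer and the scutellum answer by making alpha-amylases, secreted enzymes that break the starch of the endosperm into sugars. Gibberellin 20-oxidases make the precursors of the active hormone. In rice, AMY1A is known as a main gibberellin-responsive amylase gene of the aleurone, and RAmy3D as a gene that is switched on when sugar is scarce. The labels mention no imbibition of these seeds before RNA extraction.

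The labelled tissue was checked against markers. For a marker gene with several probe sets, the probe set of highest mean was used. All 8 embryo marker genes with a probe set exceeded a mean log2 value of 4. Of all 57258 probe sets other than controls, 22214 averaged 4 or more. Among the 8 genes are EM and RAB21, which encode late embryogenesis proteins. The log2 of the summed signal of the 8 genes was 15.61 to 15.76 over the 6 arrays. Transcripts of the starchy endosperm were present as well, with 10 of 12 marker genes above 4. The log2 of their summed signal was 12.52 to 13.21 at 40 °C, lowest on replicate 2, and 12.55 to 13.44 at 45 °C, lowest on replicate 1. The marker fixed for aleurone, LTP2, matched no gene by name, so the check does not tell embryo from aleurone. Of the 2 green tissue markers, 1 was above 4, and CAB2R lay at 1.93 to 2.72. The log2 of their summed signal was 5.38 to 5.63 at 40 °C and 3.76 to 5.77 at 45 °C.

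The test covered the 22214 probe sets whose log2 values averaged 4 or more, and 5 of the 8 member probe sets were among them. They belong to AMY1.1, AMY1.2, AMY1.3, AMY1.4 and GA20OX3. The only probe sets of AMY1.5 and GA20OX2 and the other probe set of AMY1.3 stayed under the minimum and entered only an alternative limma fit of all probe sets with no minimum. None of the 5 tested members passed limma at a Benjamini-Hochberg adjusted p of 0.05, a threshold that 0% of all tested probe sets passed. At an unadjusted limma p under 0.05 there were 0 members of 5, against 19.2% of all tested probe sets. The groups overlapped in all 5, whereas they did not overlap in 28.7% of all tested probe sets. The log2 change, 45 °C minus 40 °C, was above 0 for 2 tested members and below 0 for 3. Its median was -0.05, against -0.17 over all tested probe sets. Over all 57258 probe sets other than controls, with no minimum, the median was 0.08.

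AMY1.1, the gene of a main gibberellin-responsive amylase, had the largest log2 change among the tested members. It stood at 4.70, 6.60 and 5.22 on replicates 1, 2 and 3 at 40 °C, and at 4.70, 4.47 and 5.25 at 45 °C. Replicate 2 at 40 °C was higher than all others, and the other 40 °C arrays lay within the range of the 45 °C arrays. The mean at 40 °C was 5.51 ± 0.98 (SD, n = 3) and the mean at 45 °C was 4.81 ± 0.40 (SD, n = 3). The log2 change was -0.70 ± 0.50 (SE), with a 95% interval of -1.85 to 0.45 and a limma adjusted p of 0.446. Without replicate 2 at 40 °C it was -0.15 (limma adjusted p 0.83, in a range of 0.352 to 0.83 over all alternatives). Over the arrays left out in turn it ran from -1.10 to -0.15, so it was below 0 in each case, and it was -0.34 with array weights.

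AMY1.5, the other amylase gene with a high value on that array, was under the minimum. Its values were 2.95, 5.26 and 4.14 at 40 °C and 2.75, 3.59 and 3.06 at 45 °C. Again replicate 2 at 40 °C was highest, and replicate 1 was the lowest of its group at both temperatures. Group means were 4.12 ± 1.15 (SD, n = 3) and 3.13 ± 0.43 (SD, n = 3), a difference of -0.98 with overlapping groups, and of -0.41 without replicate 2 at 40 °C. In the limma fit with no minimum its adjusted p was 0.366.

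Replicate 2 at 40 °C exceeded the higher of the other 40 °C arrays by 1.39 for AMY1.1 and by 1.12 for AMY1.5. A gap of at least 1 was seen in 3.63% of all tested probe sets, and in 1 of the 5 tested members. AMY1.5 was under the minimum, so that share does not cover it. That array was the highest of the 6 in 34.1% of all tested probe sets, and in 2 of the 5 members, AMY1.1 and GA20OX3. In the other tested members its value lay inside the range of the rest. The array also stood apart in its control transcripts. Their mean 3-prime minus 5-prime difference, a measure of RNA integrity over 5 transcripts, was 2.89 there and at most 1.83 on the rest. It held the lowest summed endosperm signal too, 12.52, but replicate 1 at 45 °C was close to it at 12.55. The part of these differences in the AMY1.1 and AMY1.5 values was not tested.

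**Figure D1:**
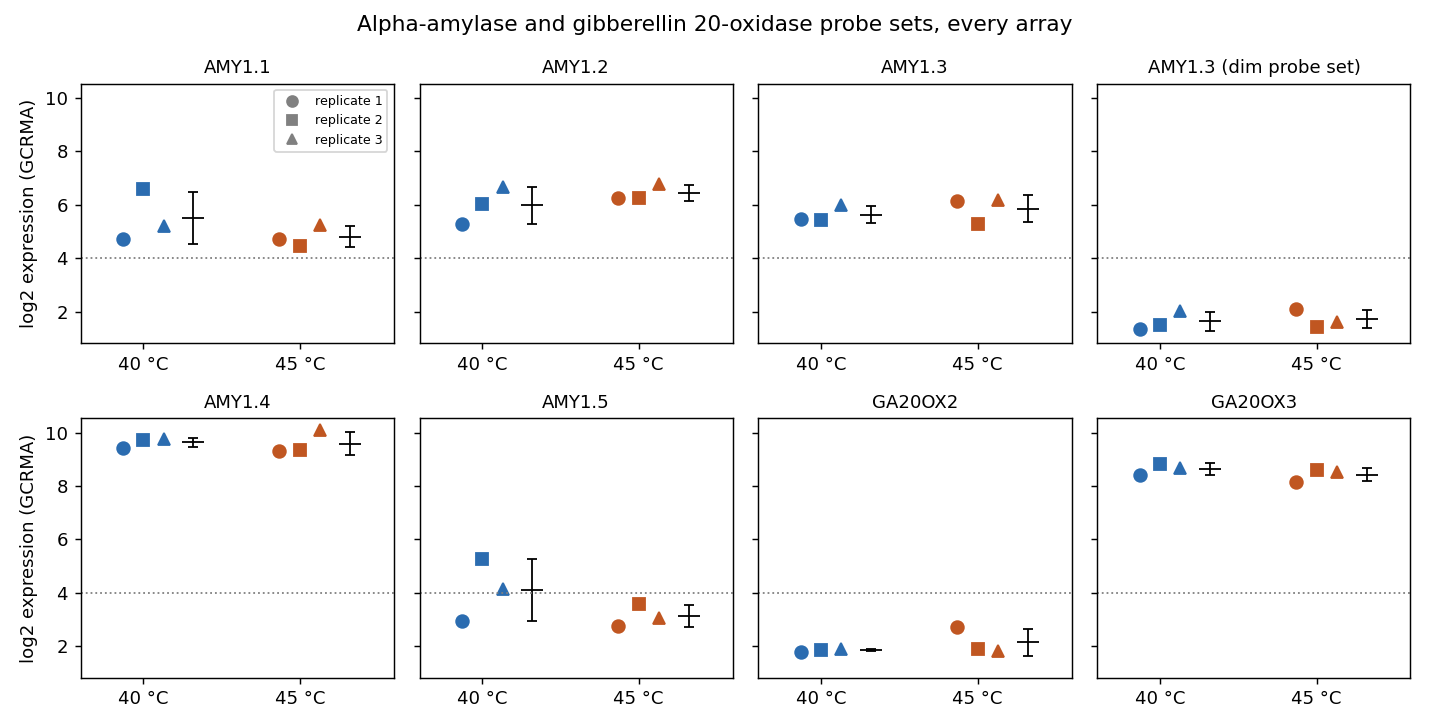
Log2 expression (GCRMA) of the 8 member probe sets on every array, with 40 °C in blue and 45 °C in orange and 1 symbol per replicate. Black marks give the mean and SD of 3 arrays, and the dotted line is the minimum of 4. Replicate 2 at 40 °C stands above the other arrays for AMY1.1 (6.60) and AMY1.5 (5.26), and the groups overlap in every panel. Heights are not comparable between panels, since each probe set has its own response.

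The remaining amylase genes belong to the RAmy3 group, and none of them had replicate 2 at 40 °C as its highest array. AMY1.2 (RAmy3A) had values of 5.28, 6.01 and 6.67 at 40 °C and 6.26, 6.26 and 6.77 at 45 °C. Its lowest arrays were replicates 1 and 2 at 40 °C, and replicate 3 was highest at both temperatures. The means were 5.99 ± 0.69 (SD, n = 3) and 6.43 ± 0.29 (SD, n = 3). The log2 change was 0.44 ± 0.38 (SE), with a 95% interval of -0.45 to 1.33 and a limma adjusted p of 0.527. Leaving out 1 array gave changes of 0.09 (without replicate 1 at 40 °C) to 0.78 (without replicate 3 at 40 °C), and the other settings gave 0.17 (array weights) to 0.70 (median centring).

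AMY1.3 (RAmy3D), the gene induced by lack of sugar, had values of 5.46, 5.41 and 5.98 at 40 °C and 6.12, 5.29 and 6.16 at 45 °C. At 45 °C replicates 1 and 3 were above every 40 °C array and replicate 2 was below them all. The log2 change was 0.24 ± 0.33 (SE), with a 95% interval of -0.54 to 1.01 and a limma adjusted p of 0.703. It was 0.09 to 0.52 when leaving out 1 array, 0.05 with array weights and 0.49 after median centring. The second probe set of this gene lay at 1.35 to 2.04 at 40 °C and 1.44 to 2.11 at 45 °C, far under the minimum on all 6 arrays, with a limma adjusted p of 0.853 in the fit with no minimum. The gene's signal was thus read by 1 of its 2 probe sets.

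AMY1.4 (RAmy3E) was measured by a probe set whose suffix (_s_at) marks probes shared with other transcripts, so its signal may include related amylase transcripts. The values were 9.44, 9.72 and 9.76 at 40 °C and 9.33, 9.35 and 10.09 at 45 °C. The 45 °C arrays hold both the highest and the lowest values. The log2 change was -0.05 ± 0.23 (SE), with a 95% interval of -0.58 to 0.49 and a limma adjusted p of 0.922. Its sign turned when the arrays were rescaled on the tested probe sets alone. The change was 0.21 after centring each array on the median of those probe sets (median centring). It was 0.14 after quantile normalization or cyclic loess. The sign also turned when 1 of 3 single arrays was left out.

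The gibberellin 20-oxidase gene GA20OX3 was measured well above the minimum. Its values were 8.39, 8.84 and 8.69 at 40 °C and 8.13, 8.60 and 8.54 at 45 °C. Replicate 1 was the lowest of its group at both temperatures, and the highest 45 °C array lay above the lowest 40 °C array. The means were 8.64 ± 0.23 (SD, n = 3) and 8.42 ± 0.25 (SD, n = 3). The log2 change was -0.22 ± 0.20 (SE), with a 95% interval of -0.69 to 0.26 and a limma adjusted p of 0.558. The change was 0.04 after median centring and 0.002 after cyclic loess.

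GA20OX2, the semi-dwarf gene sd1 of rice breeding, was under the minimum on every array. It lay at 1.80, 1.87 and 1.90 at 40 °C and at 2.72, 1.90 and 1.83 at 45 °C. Replicate 1 at 45 °C was the only array above 2. The difference was 0.29, with a limma adjusted p of 0.525 in the fit with no minimum.

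**Figure D2:**
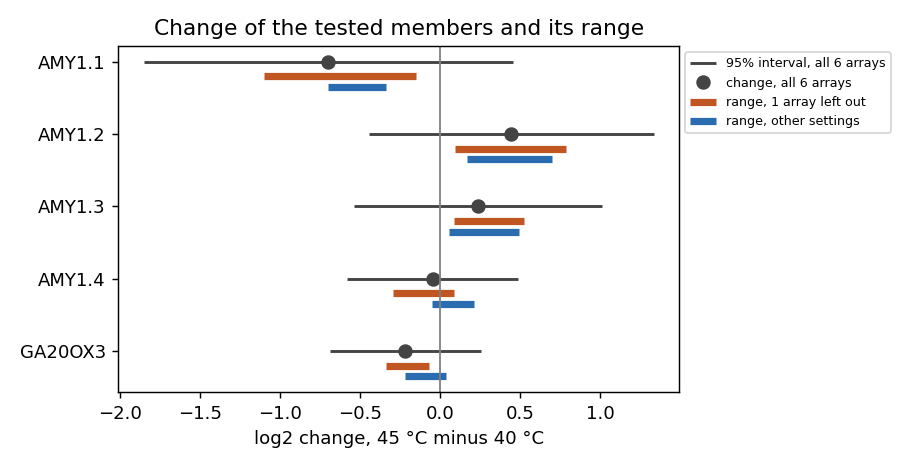
Log2 change, 45 °C minus 40 °C, of the 5 tested members. Points and thin lines are the limma estimate and its 95% interval with all 6 arrays. Orange bars give the range when 1 array is left out, and blue bars the range over the other filters, scalings and models. Every interval spans 0. Both ranges of AMY1.4 cross 0, as does the blue bar of GA20OX3 (-0.22 to 0.04), whose orange bar stays below 0. Both ranges stay below 0 for AMY1.1 and above it for AMY1.2 and AMY1.3.

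The members differed in how closely replicates lay together. The residual SD of AMY1.1 was 0.75 log2 units, and 9.15% of the tested probe sets had a larger one. It was 0.53 for AMY1.2, 0.41 for AMY1.3, 0.33 for AMY1.4 and 0.24 for GA20OX3, against a median of 0.33 over all tested probe sets. The interval of AMY1.1 was accordingly wider than that of GA20OX3.

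Differences between members inside the same array do not depend on a common shift of that array, so the 10 pairs of tested members were also compared in this way. The pairs described here were chosen after their values were seen. AMY1.1 minus AMY1.2 was -0.58, 0.59 and -1.45 at 40 °C and -1.56, -1.79 and -1.52 at 45 °C. All 45 °C arrays were below all 40 °C arrays, although replicate 3 at 40 °C differed little from them. The change in this difference was -1.14, and -0.61 without replicate 2 at 40 °C. AMY1.1 minus AMY1.3 was -0.76, 1.19 and -0.77 at 40 °C and -1.42, -0.82 and -0.91 at 45 °C. This set was also without overlap, with a change of -0.94, and of -0.29 without replicate 2 at 40 °C.

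For both pairs the exact two-sided permutation p was 0.1, the smallest that 3 arrays against 3 allow, and 0.5 after Benjamini-Hochberg adjustment over the 10 pairs. The groups overlapped in the other 8 pairs, where the adjusted p was 0.5 or 0.6. Set against each of the other tested probe sets in the same way, AMY1.1 gave groups without overlap in 8.98% of cases, and in 16.3% without replicate 2 at 40 °C. These shares cannot be compared with each other, because groups of fewer arrays separate more easily. With 3 arrays against 3 no pair could have passed a threshold of 0.05, so the test does not settle whether the members' responses differ.

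**Figure D3:**
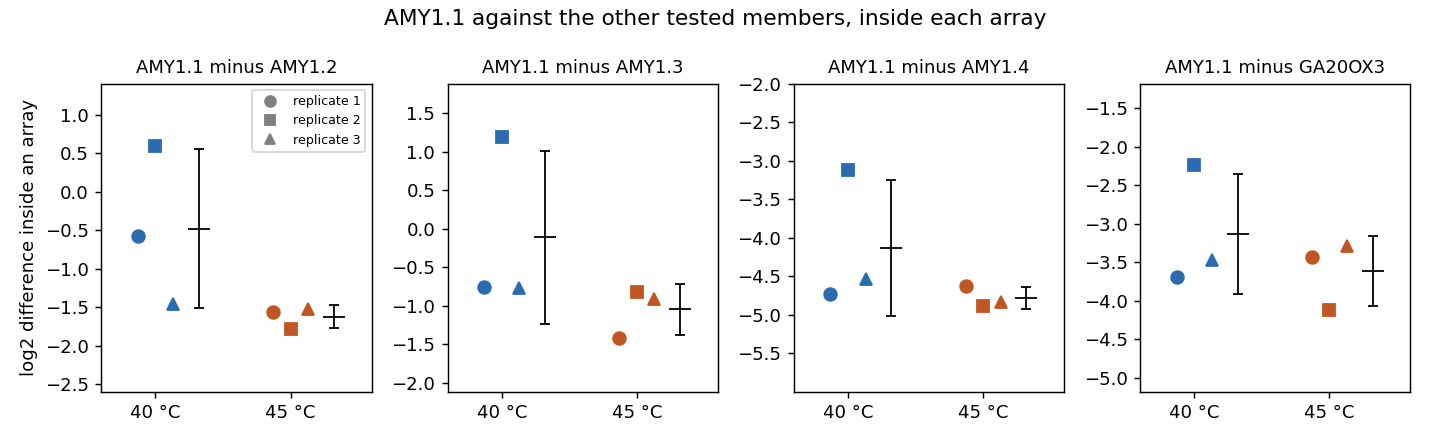
Log2 difference between AMY1.1 and each other tested member inside the same array, 40 °C in blue and 45 °C in orange, with 1 symbol per replicate and the mean and SD of 3 arrays in black. Each panel spans the same number of log2 units. Replicate 2 at 40 °C is the highest point of every panel, and the 45 °C points lie below all 40 °C points for AMY1.2 and AMY1.3.

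The genes whose pattern over the 6 arrays was most like that of AMY1.1 were looked for among 74 tested probe sets with a gene symbol other than a locus number. Likeness was the root mean square difference after centring each probe set on its own mean, and AMY1.1 itself had a root mean square of 0.71 about its mean. The nearest was CEBIP, the receptor gene for chitin fragments, at 0.34. Its values were 5.97, 6.82 and 5.66 at 40 °C and 5.64, 5.30 and 5.82 at 45 °C. FEN1A, which encodes a flap endonuclease of DNA replication, followed at 0.41 and CSB at 0.44. All of these were highest on replicate 2 at 40 °C, as AMY1.1 was. Choosing them by likeness to AMY1.1 favours this, and that array was highest in 34.1% of all tested probe sets.

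Genes that act before and beside the amylases were described from lists of names. Of 10 tested probe sets for 9 genes of gibberellin synthesis and signalling, 0 passed limma at an adjusted p of 0.05, with 5 log2 changes above 0 and 5 below (median -0.04). RGA1, the alpha subunit of the heterotrimeric G protein known for a part in the gibberellin response of rice, had values of 8.25, 8.26 and 8.34 at 40 °C and 7.75, 7.86 and 7.50 at 45 °C. The groups did not overlap, a state found with lower values at 45 °C in 17.8% of all tested probe sets. Its log2 change was -0.58 ± 0.18 (SE), with a limma adjusted p of 0.195. Scaling brought it to -0.32 (median centring), -0.36 (quantile normalization) and -0.34 (cyclic loess). SLR1, the DELLA protein that represses gibberellin responses, had values of 8.17, 8.13 and 8.84 at 40 °C and 8.46, 9.25 and 8.84 at 45 °C, a change of 0.47 ± 0.27 (SE) with a limma adjusted p of 0.366. That change was 0.27 without replicate 2 at 45 °C, 0.22 with array weights and 0.72 after median centring. GAMYB, the factor that binds amylase promoters, had a change of -0.29 (limma adjusted p 0.471). Its probe set has a suffix (_x_at) for probes that may match other transcripts too. The receptor gene gid1 had a change of -0.31 in one probe set and of 0.11 in the other. The probe set matched as GID2 had a change of 0.21 with all 45 °C arrays above all 40 °C arrays (limma adjusted p 0.53), a state found with higher values at 45 °C in 10.8% of all tested probe sets. Its gene is also named GF14E, so it may not read the F-box gene called GID2. The synthesis genes CPS1 and KAO were under the minimum.

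For genes through which sugar controls amylase, 16 probe sets of 10 genes were tested and 0 passed the adjusted threshold. The log2 change was below 0 in 13 and above 0 in 3, with a median of -0.21, whereas it was below 0 in 14309 of all 22214 tested probe sets, with a median of -0.17. In 5 of the 16 the groups did not overlap, all with lower values at 45 °C, beside 17.8% lower and 28.7% in either direction over all tested probe sets. Of these 5, 3 belong to OSK3 and OSK24, and the others to HXK6 and OSK1. HXK6 had the largest change of the list, -0.96 (limma adjusted p 0.348). Its value was 3.78 on replicate 1 at 45 °C, against 5.78 and 5.79 on the other 45 °C arrays. OSK1 had changes of -0.38 in the probe set without overlap and -0.14 in its other one. OSK24, a kinase gene of the SnRK1 family that senses energy supply, had 9.41, 9.59 and 9.63 at 40 °C and 8.84, 8.74 and 8.81 at 45 °C in one probe set. The log2 change of this probe set was -0.75 ± 0.14 (SE), with a limma adjusted p of 0.163, in a range of 0.0456 to 0.359 over the alternatives and under the threshold only with array weights (0.0456). Median centring gave a change of -0.50. The other probe sets of OSK24 had changes of -0.10 and 0.06. OSK3, a related kinase gene, had a change of -0.62 ± 0.15 (SE) in the probe set of smallest p (limma adjusted p 0.172; -0.36 after median centring), and of -0.45 and 0.23 in the others. Most of these probe sets carry a suffix (_x_at or _s_at) for probes that match other transcripts too, so signals of OSK3 and OSK24 may not be separate. MYBS2 and MYBS3 encode factors that bind the sugar-response element of amylase promoters. The change was -0.65 in the tested probe set of MYBS2 (limma adjusted p 0.341) and -0.17 and -0.31 in those of MYBS3. MYBS2 was lowest on replicate 1 at 45 °C, at 4.44, against 5.76 and 5.11 on the other 45 °C arrays. MYBS1, a related factor, was under the minimum.

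In the list of other starch breakdown, 3 genes were tested and 0 passed. DPE1, a disproportionating enzyme of starch metabolism, had 10.45, 10.75 and 10.57 at 40 °C and 10.20, 10.24 and 10.41 at 45 °C, without overlap. Its change was -0.31 ± 0.13 (SE) with a limma adjusted p of 0.254, and -0.05 after median centring. PWD, a dikinase that phosphorylates starch, had a change of -0.45 (limma adjusted p 0.375), which was -0.20 without replicate 2 at 40 °C, -0.20 after median centring and -0.16 with array weights. DPE2 had a change of 0.26. The names fixed for this list also caught AGL6, AGL10 and AGL20, which are MADS-box genes of flowering and under the minimum. Abscisic acid opposes gibberellin in the seed, and of its 6 tested genes 5 had a change below 0 and 0 passed (median -0.24, against -0.17 over all tested probe sets, most of which were also below 0). The largest change was that of ABA1 (-0.60, limma adjusted p 0.273), which was -0.35 after median centring. ABA8OX2, an abscisic acid 8'-hydroxylase gene that inactivates the hormone, had -0.43 (limma adjusted p 0.36). That change was -0.21 without replicate 2 at 40 °C and -0.18 after median centring. The ABA8OX2 probe set (_s_at) may also read related transcripts. EP3A, a cysteine proteinase gene of germinating seeds and the only one of its list with a probe set, had a change of 0.06 (limma adjusted p 0.873).

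**Figure D4:**
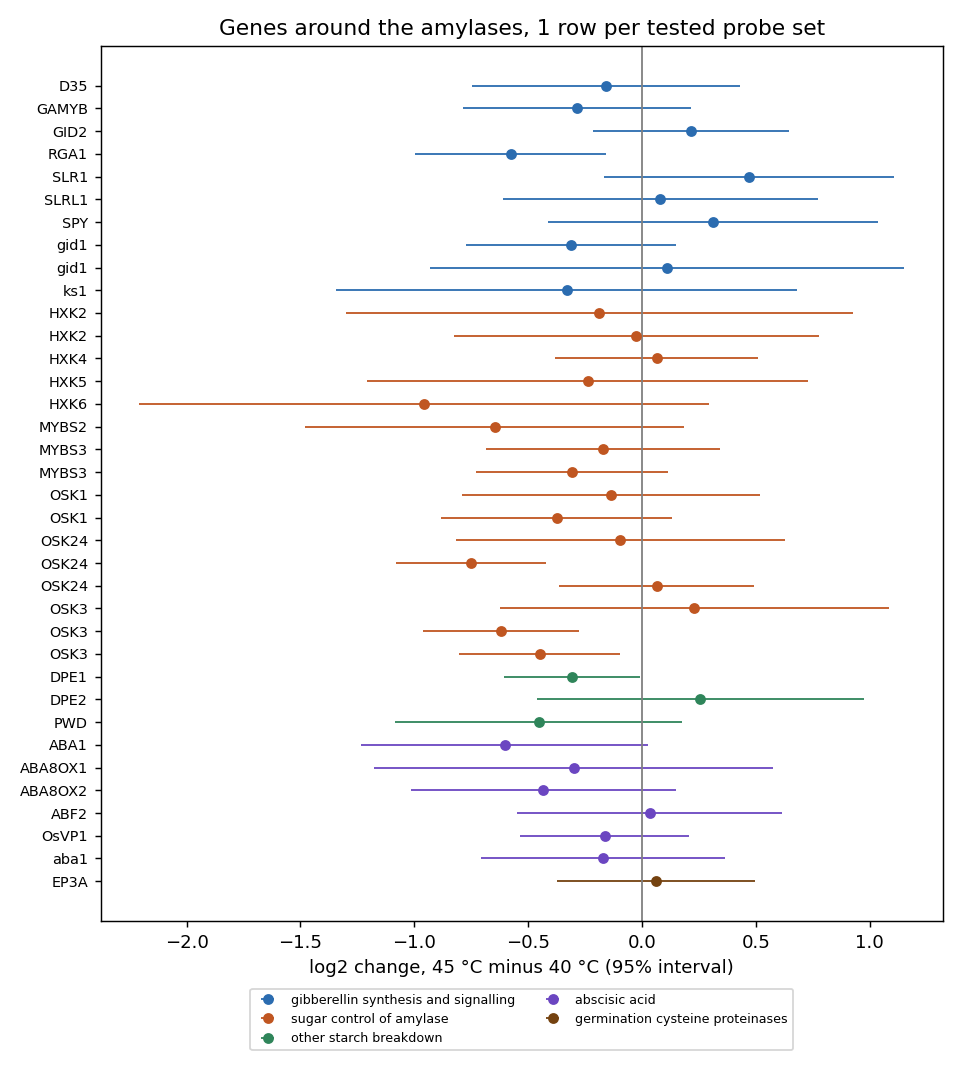
Log2 change, 45 °C minus 40 °C, with the 95% limma interval for every tested probe set of the lists around the amylases. Colours mark the lists, and a gene with several probe sets has several rows. Intervals below 0 are seen for RGA1, DPE1, 1 probe set of OSK24 and 2 of OSK3, and none of these passed the adjusted threshold. By list they are 1 of 10 probe sets (gibberellin), 1 of 3 (other starch breakdown) and 3 of 16 (sugar control). Abscisic acid had 0 of 6 and the cysteine proteinases 0 of 1. An interval without 0 goes with an unadjusted limma p under 0.05, found in 19.2% of all tested probe sets.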

How the data were processed

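The authors deposited log2 expression for each probe set on each array, computed with GCRMA, per the submitters' processing notes. Its version and the genome build are not given in the sources used here. Precision is limited by having 3 arrays per temperature. Probe sets were named through the platform annotation and the gene table of assembly ASM3414082v1, in which all 17905 genes were found; no coordinates are given. After removal of 123 controls, limma 3.58.1 (R 4.3.3; lmFit, then eBayes with its trend option) compared 45 °C with 40 °C in probe sets with a mean of at least 4, with Benjamini-Hochberg adjustment over all 22214 tested. The step was tested on simulated data with independent noise between arrays. The changes put in were larger than those of any member, so changes of the members' size were not covered. Pairs of members were compared with exact permutation tests in scipy 1.17.1. All members are named, and of each context list the 2 genes of smallest p. A few more, of textbook role or without overlap, were chosen after their values were seen. Members and lists were chosen with earlier results of these data known. Alternatives were other minimums, scalings, models and each array left out. The scalings used the tested probe sets alone, so they depend on the minimum of 4. No sequence is shown.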

Additional observations from a re-analysis of the deposited data

How the results depend on the processing

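The count of tested members past the adjusted threshold was 0 under all alternatives run, including 0 of 1 when members were matched by symbol alone. The count over all probe sets was 0 in most settings. It was 193 with array weights (15 higher, 178 lower), and 0 to 69 when leaving out 1 array, with 69 reached without replicate 2 at 40 °C (3 higher, 66 lower). Array weights gave that array 0.336. Of 68 member values under alternatives, 8 had the opposite sign, in 2 members. For AMY1.4, median centring gave 0.21, quantile normalization 0.14 and cyclic loess 0.14. Its values with 1 array omitted ran from -0.30 to 0.084, and were positive for the omission of replicate 3 at 40 °C (0.01), of replicate 1 at 45 °C (0.084) and of replicate 2 at 45 °C (0.07). For GA20OX3, median centring gave 0.038 and cyclic loess 0.0020. The scalings moved the median change of all tested probe sets from -0.17 to 0.09 (median centring), 0.02 (quantile) and -0.02 (cyclic loess). Among context genes EP3A ran from -0.048 to 0.24 with 1 array omitted. The negative values were -0.048 (replicate 1 at 40 °C omitted), -0.0094 (replicate 3 at 40 °C omitted) and -0.03 (replicate 3 at 45 °C omitted). OSK24 passed the threshold with array weights (-0.78). The cause of these changes was not tested. Deviations of same-numbered arrays correlated at 0.03, -0.14 and -0.04, and those of differently numbered arrays at -0.16 to 0.13. With 3 arrays per group these values do not settle whether the replicate numbers pair the arrays. With the replicate number as a block 0 probe sets and 0 members passed. The differences inside arrays and the context genes were given alternatives after seeing the data.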

Other observations

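The hybridization controls, bacterial and phage transcripts added to the sample before hybridization, differed between the groups. The mean of the BioB probe sets was 6.65 to 7.94 at 40 °C and 8.48 to 8.74 at 45 °C, and that of BioC was 10.26 to 11.55 and 11.75 to 11.86. In both the groups did not overlap, with mean differences of 1.48 and 1.01 log2 units. For BioDn and CreX, the brighter controls, the groups overlapped, with differences of 0.51 and 0.12. The exact two-sided permutation p was 0.1 for BioB and BioC, the smallest that 3 arrays against 3 allow, 0.2 for BioDn and 0.3 for CreX, and 0.2 to 0.3 after adjustment over the 4 controls. Replicate 2 at 40 °C held the lowest value of all 4. The part of this difference in the members' values was not tested.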
